A study of Mus musculus with 47 samples.

Results

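The Cntnap genes encode the Caspr proteins, single-pass membrane proteins of the neurexin superfamily, and the contactin genes (Cntn) encode immunoglobulin-domain adhesion proteins held on the cell surface by a lipid anchor. Members of the families pair with each other on axons. Caspr and contactin-1 form the axonal side of the paranodal junction beside the node of Ranvier, and Caspr2 clusters Kv1 potassium channels next to it, while Caspr4 is known from the synapses of GABAergic interneurons. In NPY-positive neurons sampled singly from auditory cortex (AC) and from the hippocampal areas CA3 and CA1, 9 of the 22800 gene symbols of the count table were followed: Cntnap1, Cntnap2, Cntnap4, Cntnap5a, Cntn1, Cntn3, Cntn4, Cntn5 and Cntn6. The genes were listed by name and chosen by their read counts in AC and CA3, with the pattern of Cntnap4 in view, so all values of AC against CA3 given here are descriptions and none was tested.

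Cytosol of neurons that expressed neuropeptide Y (NPY) was drawn into the patch pipette after recording, and the amplified cDNA was sequenced, so each sample is 1 cell. Cells came from slices of mice of 3 to 8 weeks that express a green fluorescent protein from the Npy gene, named NPY-hrGFP or NPY-EGFP in the sources, with 8 mice in all. AC cells lay in layers 1 and 2 of coronal slices and CA3 cells in stratum lacunosum-moleculare of horizontal slices, so the plane of the slice went with the region and cannot be told apart from it. No cell carried a treatment or a further allele by the labels, and no label ties a cell to a mouse, for which reason each region was taken as 1 sample, and each SD is the spread among cells and no more.

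The cells are those of 10 AC, 13 CA3 and 3 CA1 columns, fixed by name, out of 47 columns. The deposited values were raw read counts, with 1715012 to 6265431 reads per AC cell, 2229519 to 7949918 per CA3 cell and 601781 to 3202430 per CA1 cell. All 26 cells had reads on Gad1 and Gad2, which encode the enzymes of GABA synthesis, and on Npy. Aqp4, Mog, Pdgfra, Cspg4, Olig2 and Tmem119, which mark astrocytes, oligodendrocytes, their precursors and microglia, had 0 reads in all 26. Other markers of those cells were read in some: summed over 5 genes, astrocyte markers reached 1089 CPM (reads per 1000000 reads on genes) in AC and 0.4215 CPM in CA3, oligodendrocyte markers 367.1 and 955.1 CPM, and microglia markers 3492 and 228.4 CPM. The AC columns N4 and N4X were counted as 1 cell by their names and counts, which no label states. Their counts differed by a chi-square per degree of freedom of 2.20, against 37.03 in the next closest pair of columns of a region.

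The members lie on 6 chromosomes of GRCm38 in the GENCODE vM21 annotation, and most are long genes. Cntnap4 runs from 112570043 to 112882717 on the plus strand of chromosome 8 and Cntn1 from 92051165 to 92341967 on the plus strand of chromosome 15. Cntnap2 (45059357 to 47304213, plus strand, 2244.9 kb), Cntn3 (102162655 to 102573101, minus strand), Cntn6 (104492790 to 104863406, plus strand) and Cntn4 (105677660 to 106699310, plus strand) all lie on chromosome 6. Cntn5 spans 1243.9 kb on the minus strand of chromosome 9 (9660891 to 10904775), Cntnap5a 902.6 kb on the plus strand of chromosome 1 (115684756 to 116587323) and Cntnap1 20.2 kb on the plus strand of chromosome 11 (101170523 to 101190724). Of 6280 windows of 50 bases along the Cntnap4 transcripts, 0 occurred in a transcript of any other gene. Shorter or inexact matches and the opposite strand were not searched, so shared reads are not excluded. In the genome 503 bases of its exons (8.01%) overlap those of Gm45904. Cntn4, Cntn5 and Cntn6 also had 0 shared windows, and the remaining members shared at most 0.964% of theirs.

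Cntnap5a was the member that shared windows within its family, 0.954% of them with Cntnap5b and Cntnap5c, so a small part of its reads cannot be assigned with certainty. The longest run common to the coding sequences of all 3 genes is 56 bases, coding bases 1516 to 1571 of each, and lies within exon 10 of 24. It sits on the plus strand of GRCm38 at chr1:116188305-116188360 in Cntnap5a, chr1:100164109-100164164 in Cntnap5b and chr17:58104638-58104693 in Cntnap5c. The sequences are shown as the longest stretch in which a read of any of the 3 would look alike. Most of the shared windows lie elsewhere in the genes. They were taken 5′ to 3′ from the GENCODE vM21 transcripts, with the shared run in capitals and 20 coding bases on either side in lower case.
Cntnap5a: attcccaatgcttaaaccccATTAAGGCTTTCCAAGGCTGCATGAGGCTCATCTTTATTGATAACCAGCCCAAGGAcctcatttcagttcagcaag
Cntnap5b: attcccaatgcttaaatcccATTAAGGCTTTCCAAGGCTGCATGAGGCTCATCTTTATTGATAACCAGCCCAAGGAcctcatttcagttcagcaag
Cntnap5c: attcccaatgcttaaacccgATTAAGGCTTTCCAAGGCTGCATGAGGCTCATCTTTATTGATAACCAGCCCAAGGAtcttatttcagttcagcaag

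**Figure D1:**
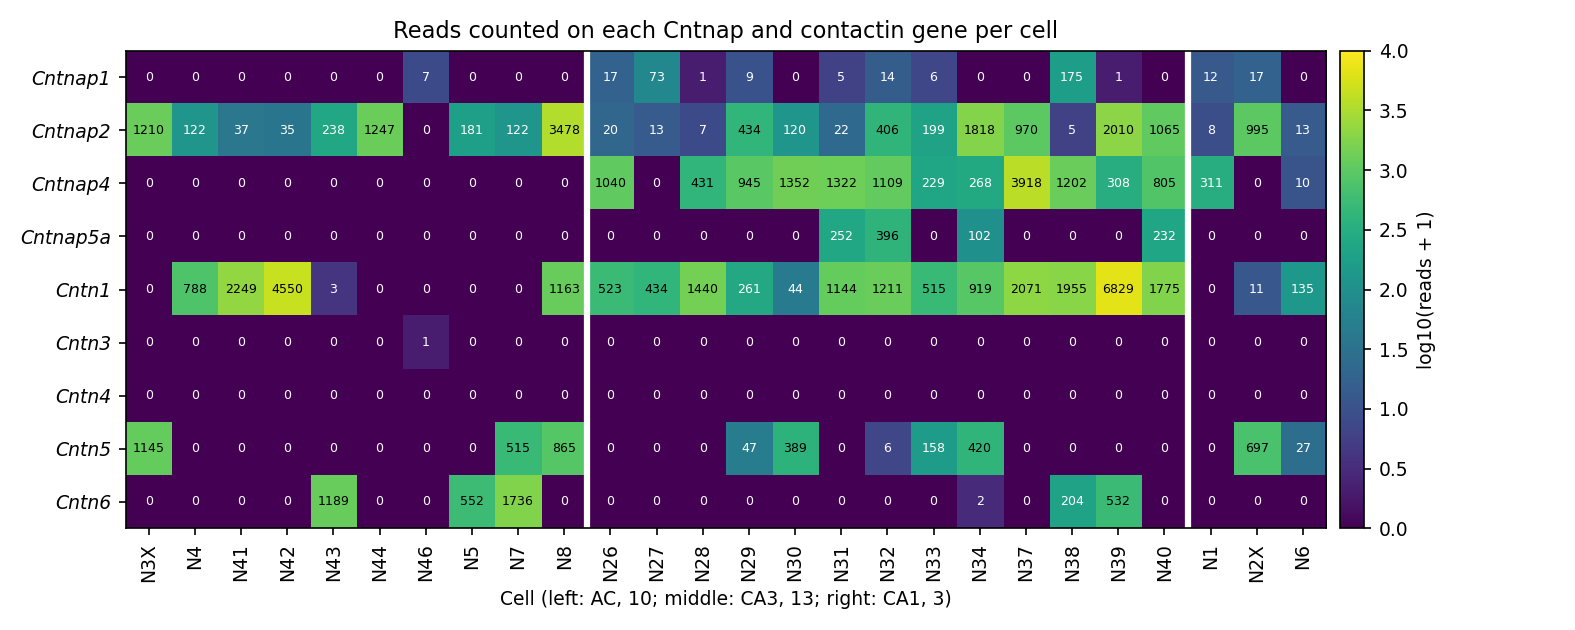
Reads counted on each of the 9 member genes (rows) in each of 10 AC, 13 CA3 and 3 CA1 cells (columns, split by white lines), with the number printed in the tile and the colour giving log10(reads + 1). The Cntnap4 row is 0 in the 10 AC cells and above 0 in 12 of 13 CA3 cells and 2 of 3 CA1 cells, the Cntn1 row is above 0 in all 13 CA3 cells, and the Cntn4 row is 0 throughout.

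Cntnap4 set CA3 apart from AC more than any other member. Its reads ran from 0 in the CA3 cell N27 to 3918 in N37, with a median of 945 over the 13 CA3 cells, and all 10 AC cells had 0. Among the 12 CA3 cells with reads the lowest had 229, so N27 stood alone below the other 12. The share of CA3 cells with a read was 92.3% (exact Clopper-Pearson 95% interval 64.0 to 99.8%), and 0 of 10 AC cells allowed a share of up to 30.9% by the same interval. Intervals on shares treat the cells of a region as independent draws, which the labels do not show them to be. Poisson intervals on summed reads treat reads as independent molecules, which amplified reads are not. Both cover counting error only and compare no regions. Summed over CA3, 12929 reads gave 264.6 CPM (95% interval 260.1 to 269.2), of which the cell N37 held 30.3%.

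In AC, 0 reads among the summed reads of the 10 cells set a floor of 0.0881 CPM, the value of 3 reads. Against that floor Cntnap4 was at least 3003-fold lower in these AC cells than in CA3, or 2294-fold without N37. The upper end of the Poisson interval for 0 reads is higher, at 0.1083 CPM, so the bound holds for that floor alone. The level, log2(normalised count + 1) after scran size factors, was 8.75 ± 2.99 (SD, n = 13 cells) in CA3 and 0 in AC, a difference of −8.75 that came to −5.71 with a pseudocount of 10, −11.82 with 0.1 and −5.28 with all labelled cells. All labelled cells add 8 CA3 columns, 1 of them with Gad1 reads, and 9 AC columns, 4 of them with Gad1 reads. Of the 1534 genes read in at least 12 of 13 CA3 cells, 3 had no read in the 10 AC cells (0.196%), Cntnap4 among them. Of the 2891 read in at least 10 of 13 CA3 cells, 9 had none (0.311%). Of all 5964 genes read in at least 10 of the 23 AC and CA3 cells, 2 had every CA3 cell above every AC cell (0.0335%), and Cntnap4 was not one of them, since N27 had no read. The pattern of Cntnap4 chose the gene, so nothing further is read from these shares.

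Cntnap4 was also read in CA1, which goes against the rule by which the genes were listed, where it was described as seen in CA3 alone. The CA1 cell N1 had 311 reads (516.8 CPM), N6 had 10 and N2X had 0. N1 was the shallowest of the 26 cells, with 601781 reads in all, and its sums were 882.4 CPM for astrocyte, 353.9 for oligodendrocyte and 212.7 for oligodendrocyte precursor markers. Their part in its Cntnap4 reads was not tested. Over the 3 CA1 cells the level was 5.19 ± 5.43 (SD, n = 3 cells), a spread that spans the AC and the CA3 values.

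**Figure D2:**
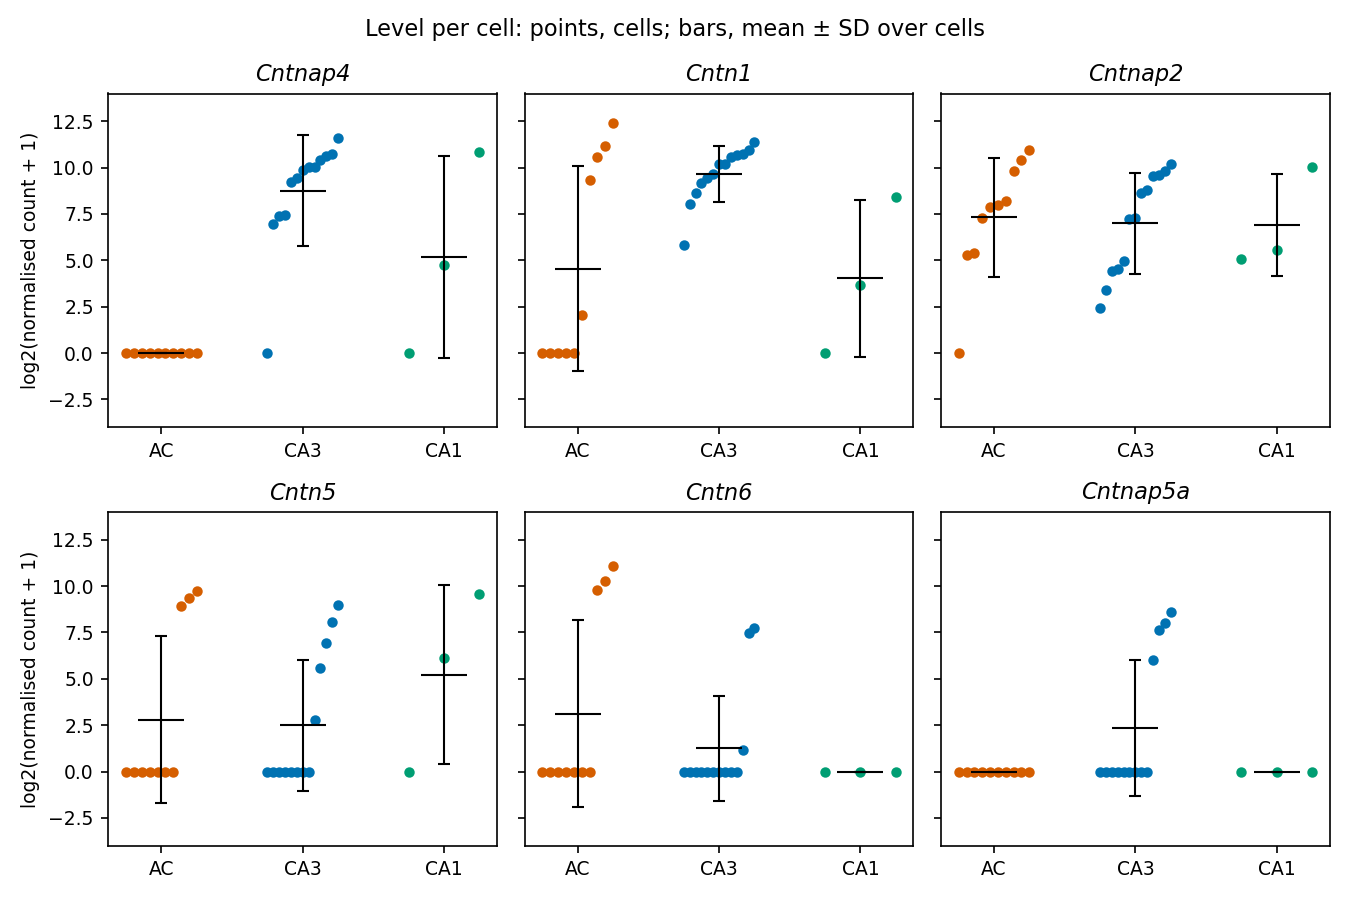
Level per cell, log2(normalised count + 1), of 6 member genes in AC (n = 10 cells), CA3 (n = 13) and CA1 (n = 3). Points are cells in rising order and bars are the mean ± SD over cells. Cntnap4 is 0 in all AC cells against a mean of 8.75 in CA3, Cntn1 and Cntn6 fall in AC into cells of at most 3 reads and cells above 9, and Cntnap2 overlaps between the regions.

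The CA3 cells with Cntnap4 were for the most part cells with Lhx6, a transcription factor of interneurons born in the medial ganglionic eminence (MGE). With at least 10 reads as the limit, 10 of 13 CA3 cells had both genes, 2 had Cntnap4 alone (N29 with 0 and N38 with 2 Lhx6 reads) and N27 had neither, with 2 Lhx6 reads. By that limit no CA3 cell had Lhx6 without Cntnap4. Since 12 of 13 CA3 cells had Cntnap4, most cells with any other gene would hold it too, so no pairing is read from these counts. In AC both genes were below that limit in 10 of 10 cells, with 0 Lhx6 reads in all. In CA1, Lhx6 had 0 reads in all 3 cells. Prox1, a transcription factor of interneurons of the caudal ganglionic eminence (CGE), had 349 reads in N1, 161 in N6 and 1125 in N2X. The cells N1 and N6 thus held Cntnap4 together with Prox1 and without Lhx6. In CA3, N26 held 1040 Cntnap4, 256 Prox1 and 347 Lhx6 reads, and N38 held 1202 Cntnap4 and 8 Prox1 reads.

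Outside the 26 cells, 1 column of CA3 and 1 of AC had reads of both genes. The CA3 column N36 had 4229 Cntnap4 reads and an Lhx6 level of 1835 CPM. The AC column N45 had 823 Cntnap4 reads and 1302 Lhx6 reads, and it was the one AC column with either. The absence of Cntnap4 from AC thus held for the 10 named cells and not for all labelled AC cells.

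**Figure D3:**
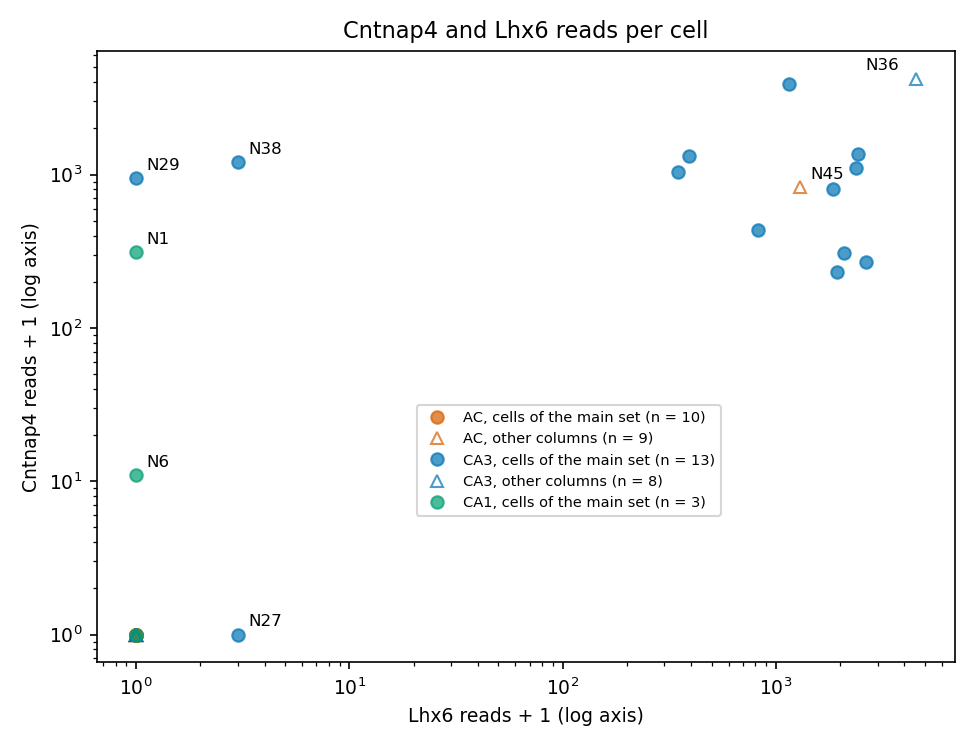
Cntnap4 reads + 1 against Lhx6 reads + 1, both on log axes, per cell of AC, CA3 and CA1. Filled circles are the 26 named cells and open triangles the other labelled columns, with many cells on top of each other at 0 reads of both genes. The 10 CA3 cells with both genes lie at the upper right with N36 and N45, and N29, N38, N1 and N6 hold Cntnap4 with at most 2 Lhx6 reads.

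Cntn1 encodes contactin-1, the contactin that pairs with Caspr at paranodes and binds tenascin-R. It was read in all 13 CA3 cells, from 44 reads in N30 to 6829 in N39 with a median of 1144. In AC the cells fell apart: N42 had 4550 reads, N41 2249, N8 1163 and N4 788, while N43 had 3 and the remaining 5 cells had 0. Scaled for depth, N42 at 1186 CPM was above the highest CA3 cell, N39 at 859.0 CPM, and N43 and the 5 cells of 0 reads were below the lowest. Reads were found in 5 of 10 AC cells (95% interval of the share 18.7 to 81.3%) and in 13 of 13 CA3 cells (at least 75.3%). Mean levels were 4.56 ± 5.53 (SD, n = 10) and 9.65 ± 1.49 (SD, n = 13), a difference of −5.09 that was smaller than the SD in AC. The level went down with the number of genes detected, with a Spearman rho of −0.50 over the CA3 cells and −0.38 over the AC cells as a description. Summed over cells the regions were closer, with 257.0 CPM (251.7 to 262.5) in AC and 391.4 CPM (385.8 to 396.9) in CA3, a ratio of 1.52. N42 held 51.98% of the AC reads, and without it AC stood at 139.1 CPM and the ratio was 2.81.

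Markers of other cells moved in part with Cntn1. The AC cell N42, with the highest Cntn1, had 3492 CPM of microglia markers, N4 had 1015 CPM of astrocyte markers, and N41 had 371.1 and 553.7 CPM of astrocyte and microglia markers. N8 had 0 CPM of the astrocyte, oligodendrocyte and microglia lists and 1163 Cntn1 reads, and N46 had 1089 CPM of astrocyte and 2157 CPM of microglia markers and 0 Cntn1 reads. In CA3 the cells highest in Cntn1, N39 at 859.0 CPM and N28 at 606.9 CPM, had the highest oligodendrocyte sums, 581.4 and 955.1 CPM, and N37 at 485.1 CPM of Cntn1 had 0. The part of such markers in the Cntn1 reads was not tested. Without N42 the difference in mean level was −5.97. With at least 10 reads as the limit, 4 AC cells had Prox1 without Cntn1, 3 had Cntn1 without Prox1, N8 had both, and N43 and N46 had neither. With at least 1 read, 3 had both, 4 had Prox1 alone, 2 had Cntn1 alone and 1 had neither.

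Cntn6 and Cntn5 encode contactins known from sensory and cerebellar circuits, and each was read in a minority of the cells in AC and in CA3. Cntn6 had 1736 reads in the AC cell N7, 1189 in N43 and 552 in N5, and 0 in the other 7. In CA3 it had 532 reads in N39, 204 in N38 and 2 in N34, and 0 in the other 10, and all 3 CA1 cells had 0. The 3 AC cells with Cntn6 were above all CA3 cells. Reads were found in 3 of 10 AC cells (interval of the share 6.67 to 65.3%) and in 3 of 13 CA3 cells (5.04 to 53.8%). Summed reads gave 102.1 CPM in AC and 15.1 CPM in CA3, a ratio of 6.76 that rests on 3 cells in each region. It was 3.62 without N7 and 20.3 without N39. The levels were 3.12 ± 5.03 (SD, n = 10) and 1.26 ± 2.83 (SD, n = 13), a difference of 1.86 within the SD of either region.

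No AC cell had at least 10 reads of both Cntn1 and Cntn6. Of the 10, 4 had Cntn1, 3 had Cntn6, and N3X, N44 and N46 had neither. With at least 1 read, N43 had both, with 3 Cntn1 and 1189 Cntn6 reads. In CA3 the 2 cells with at least 10 Cntn6 reads, N38 and N39, also had 1955 and 6829 Cntn1 reads. With 10 cells the absence of a shared AC cell is a count and was not tested.

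Cntn5 had 1145 reads in the AC cell N3X, 865 in N8 and 515 in N7, and 0 in the other 7. In CA3 it had 420 in N34, 389 in N30, 158 in N33, 47 in N29 and 6 in N32, and in CA1 697 in N2X and 27 in N6. The regions overlapped, with N30 of CA3 at 139.1 CPM and N8 of AC at 138.1 CPM, and cells of 0 reads made up most of both. Levels were 2.80 ± 4.52 (SD, n = 10) in AC, 2.48 ± 3.56 (SD, n = 13) in CA3 and 5.22 ± 4.84 (SD, n = 3) in CA1, none apart from another by more than these SDs. Summed CPM was 74.2 in AC and 20.9 in CA3, a ratio of 3.55. It was 2.20 without N3X, 5.41 without N30 and 5.42 without N34. In CA3 the level of Cntn5 was higher in cells with more genes detected (Pearson r = 0.64 and Spearman rho = 0.70 over 13 cells, a description across cells that share a region), and 290 bases of its exons (6.4%) overlap Gm32710.

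Cntn3 and Cntn4 were at or near 0. Cntn3 had 1 read, in the AC cell N46, and Cntn4 had 0 reads in all 26 cells, which allows a share of up to 30.9% of AC cells, 24.7% of CA3 cells and 70.8% of CA1 cells. Outside these cells Cntn4 had 133 reads, all in the AC column N45. Of the 3 contactin genes that lie between 102162655 and 106699310 on chromosome 6, Cntn6 was thus the one with more than 1 read in the 26 cells.

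Cntnap2 encodes Caspr2, which binds contactin-2 and holds Kv1 channels in place. Among the members it was the one read in nearly all cells of every region, 9 of 10 in AC, 13 of 13 in CA3 and 3 of 3 in CA1. Reads in AC ran from 0 in N46 to 3478 in N8 with a median of 151.5, and in CA3 from 5 in N38 to 2010 in N39 with a median of 199. In CA1 they were 995 in N2X, 13 in N6 and 8 in N1. The regions overlapped over nearly the whole range, with levels of 7.32 ± 3.19 (SD, n = 10) in AC, 6.99 ± 2.71 (SD, n = 13) in CA3 and 6.91 ± 2.74 (SD, n = 3) in CA1. The difference of 0.33 between AC and CA3 was far below these SDs, and it was 1.14 without N46 and fell below 0 without N8 (−0.07), N38 (−0.05) or N44 (−0.02). Summed CPM was 195.9 (191.2 to 200.6) in AC and 145.1 (141.7 to 148.5) in CA3, a ratio of 1.35, with 52.1% of the AC reads in N8. Without N8 the ratio turned to 0.792.

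Cntnap1 encodes Caspr, the partner of contactin-1 at paranodes. It was low in both regions, with 7 reads in the AC cell N46 and 0 in the other 9, and 1 to 175 reads in 9 of 13 CA3 cells. With at least 10 reads as the limit, 0 of 10 AC and 4 of 13 CA3 cells had it: N38 with 175, N27 with 73, N26 with 17 and N32 with 14. In CA1 it was read in 2 cells, N2X with 17 reads and N1 with 12. Summed CPM was 0.206 (0.0827 to 0.424) in AC and 6.16 (5.48 to 6.90) in CA3, the latter 2.79 without N38. Levels were 0.31 ± 0.97 (SD, n = 10) and 2.53 ± 2.59 (SD, n = 13), a difference of −2.22 that was smaller than the SD in CA3 and came to −0.93 with a pseudocount of 10 and −0.94 with all labelled cells. N46, the AC cell with Cntnap1, had 2157 CPM of microglia and 367.1 CPM of oligodendrocyte markers, and their part in the 7 reads was not tested.

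Cntnap5a, which encodes a further Caspr protein, was read in 4 of 13 CA3 cells, with 396 reads in N32, 252 in N31, 232 in N40 and 102 in N34. It had 0 reads in the AC and CA1 cells. Against the floor of 0.0881 CPM in AC, its 20.1 CPM in CA3 was at least 228-fold higher, or 145-fold without N32, which held 40.3% of the reads. The share of cells with a read was 30.8% (9.09 to 61.4%) in CA3 and 0 (up to 30.9%) in AC. All 4 of these cells also had Cntnap4 and Cntn1. The cell N31 had in addition 10 reads on Cntnap5b, which shares the run printed above, and the other 3 had 0. Outside the named cells the AC column N50 had 782 Cntnap5a reads, with 0 Gad1 reads.

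The members that reached a read in at least 10 of the 23 AC and CA3 cells, the filter for setting genes side by side, were Cntnap1, Cntnap2, Cntnap4 and Cntn1. Cntnap4 reached it through CA3 alone and Cntnap1 through 9 CA3 cells and 1 AC cell, so nothing is read from how many passed or differed. Of these 4, 3 were at least 1 higher in CA3 on the log2 scale, where 48.1% of all 5964 genes tested were, and 0 were at least 1 higher in AC, where 15.4% were. Cntnap1 was not among the former with a pseudocount of 10 or with all labelled cells, which left 2 of 4. The median difference of all genes tested, AC minus CA3, was −0.91, and that of the 4 members −3.66. Taken relative to the median of all genes, 29.3% of genes were higher in AC and 29.6% in CA3, and Cntnap4 stood at −7.84, Cntn1 at −4.19, Cntnap1 at −1.31 and Cntnap2 at 1.23, now past 1 towards AC. Of the genes past 1, the share higher in AC moved from 24.2% to 49.7% with this centring. The other members, with reads in fewer cells, had differences of −2.33 for Cntnap5a, 0.10 for Cntn3, 0 for Cntn4, 0.32 for Cntn5 and 1.86 for Cntn6.

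Per kb of exon, which allows the members to be set against each other, the order differed between the regions. In AC the mean over cells was 24.9 ± 41.3 CPM per kb (SD, n = 10) for Cntn1, 22.2 ± 40.2 for Cntn6, 15.1 ± 18.5 for Cntnap2 and 14.3 ± 24.3 for Cntn5, followed by 0.0367 for Cntnap1 and 0.00458 for Cntn3. In CA3 it was 45.8 ± 39.9 CPM per kb (SD, n = 13) for Cntnap4, 36.1 ± 25.3 for Cntn1 and 11.1 ± 12.01 for Cntnap2, and then 4.77 for Cntn5, 1.90 for Cntnap5a, 1.46 for Cntn6 and 1.25 for Cntnap1. In CA1 it was 27.9 ± 47.1 CPM per kb (SD, n = 3) for Cntnap4, 17.6 for Cntn5, 10.9 for Cntnap2, 3.999 for Cntn1 and 1.43 for Cntnap1. No neighbours in these orders were farther apart than the larger of their SDs, and the orders rest in part on single cells. In AC the mean of Cntn1 was 13.7 without N42, that of Cntn6 11.5 without N7 and that of Cntn5 8.99 without N3X, and in CA1 that of Cntnap4 was 0.647 without N1. In CA1 the means of Cntn5 and Cntnap2 were 2.42 and 1.16 without N2X, that of Cntn1 0.182 without N6 and that of Cntnap1 0.452 without N1. In CA3 that of Cntn5 was 2.60 without N30, that of Cntn6 0.718 without N39, that of Cntnap1 0.675 without N38 and that of Cntnap5a 1.10 without N32. With the longest transcript as the length, Cntn1 at 60.0 CPM per kb passed Cntnap4 at 59.1 in CA3, and Cntn6 passed Cntnap5a.

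AC cells differed among themselves in which member led. Per kb of exon Cntn1 led in N4, N41 and N42, Cntn6 in N5, N7 and N43, Cntnap2 in N8 and N44, Cntn5 in N3X and Cntnap1 in N46, whose sum over the members was 0.413 CPM per kb. A single member often made up most of the sum, 99.3% for Cntn1 in N42, 88.6% for Cntn6 in N43 and the whole of it for Cntnap2 in N44. In the CA3 cells Cntnap4 led in 6, Cntn1 in 6 and Cntnap2 in N34. The number of members with a read was 1 to 3 per AC cell, with 2 in 6 of them, and 3 to 6 per CA3 cell, with 5 in 5 of them. The CA3 cells also had more genes detected in all, 3679 to 8149 against 3163 to 6288 in AC. Summed over the members, the range was 0.413 to 174.3 CPM per kb in AC, 23.9 to 219.7 in CA3 and 18.8 to 87.0 in CA1, so the summed level overlapped between regions.

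**Figure D4:**
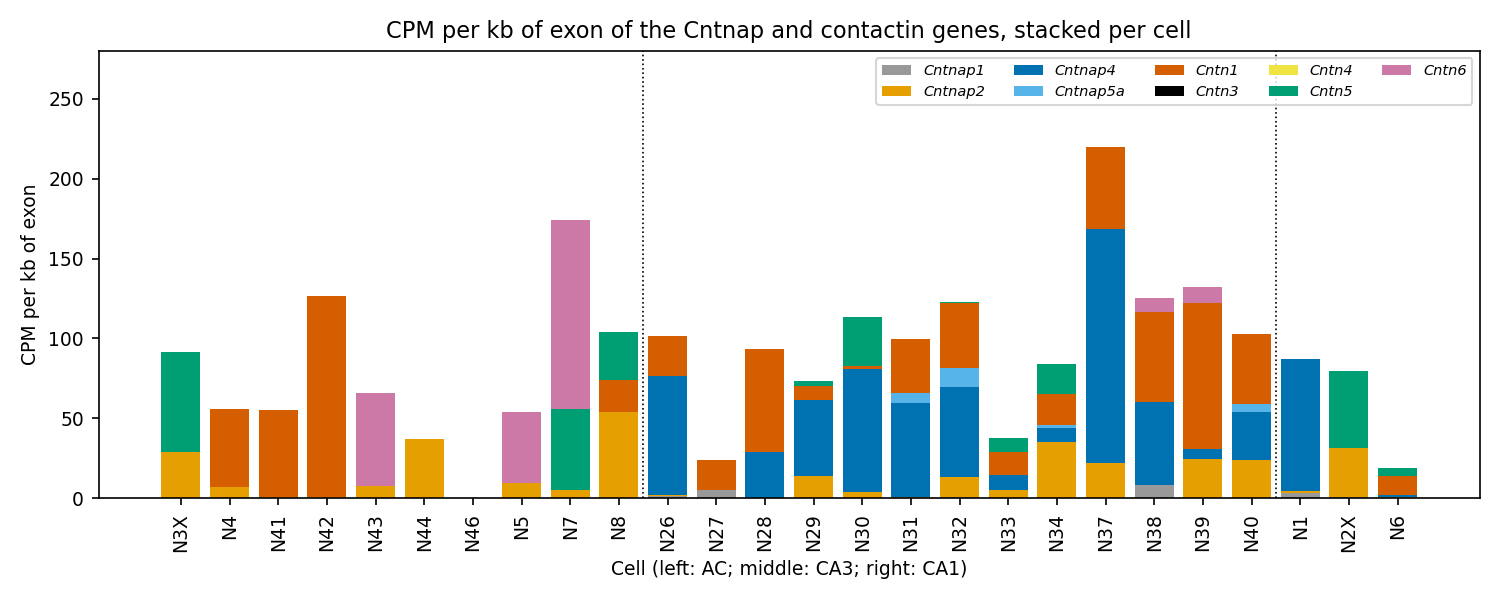
CPM per kb of exon of the 9 member genes stacked for each cell of AC (left), CA3 (middle) and CA1 (right). In AC the bars are mostly of 1 or 2 colours that change from cell to cell, and N46 is at 0.413 CPM per kb, whereas Cntnap4 and Cntn1 together fill most of the CA3 bars and N37 is the tallest at 219.7.

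Of the other genes of the families, Cntnap3 and Cntn2 had most of their reads of the 26 cells in CA3, and none of them reached the filter. Cntnap3, which encodes Caspr3, had reads in 8 of 13 CA3 cells, from 1 in N31 to 1646 in N39, and 0 in the 10 AC cells, at least 545-fold lower against the floor in AC, or 195-fold without N39. Cntn2, the partner of Caspr2, had 2333 reads in N39, 503 in N38, 74 in N29 and 2 in N40, and 1 read in the AC cell N4. Outside the 26 cells the AC column N48 had 2744 Cntn2 reads and N45 had 115. The CA3 columns N18, N23 and N15 had 189, 91 and 4, and the NPY-negative cell had 30, beside oligodendrocyte sums of 16680 to 164600 CPM. N39 had 581.4 CPM of these markers, and their part in the Cntn2 reads was not tested. N39 thus held 70.1% of the Cntnap3 and 80.1% of the Cntn2 reads of CA3, as well as 35.7% of those of Cntn1. Cntnap5c ran the other way, with 2218 reads in the AC cell N44 and 94 in the CA3 cell N29, each the single cell of its region with a read.

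The genes around the families were taken from lists fixed by name, with the same background of 15.4% of genes higher in AC and 48.1% higher in CA3. Of the L1 family, cell adhesion proteins that contactins bind, 4 of 4 genes were tested. L1cam was higher in AC (4.66 ± 4.30 against 2.98 ± 3.82, a difference of 1.68), Chl1 and Nrcam were higher in CA3 by the size set (−2.21 and −3.17), and Nfasc, which encodes neurofascin, was at −0.03. Nrcam resembled Cntn1 in its spread, with reads in 5 of 10 AC cells and 13 of 13 CA3 cells and levels of 5.10 ± 5.40 and 8.27 ± 1.27. None of the 4 differences exceeded the larger SD of its regions. Summed CPM went the other way for Chl1 (450.3 in AC, 329.3 in CA3) and Nrcam (207.9 and 136.6), and for Nfasc it was 101.7 in AC and 22.3 in CA3.

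Of the proteins that anchor such adhesion molecules to the membrane skeleton, 13 of 14 genes were tested, with 4 higher in AC, 4 higher in CA3 and a median difference of −0.10 against −0.91 over all genes. Those higher in AC were Sptbn4 (3.49) and Sptan1 (2.80), which encode spectrins, Ank3 (1.39), the ankyrin of nodes and axon initial segments, and Dlg3 (2.48). Those higher in CA3 were Epb4.1l3 (−2.27), the protein 4.1 that binds Caspr at paranodes, Dlg1 (−2.27), Cask (−1.75) and Epb4.1l1 (−1.44). By summed CPM, Dlg1 (98.2 in AC, 96.9 in CA3) and Epb4.1l1 (101.6 and 94.0) were not higher in CA3. Relative to the median of all genes 6 were higher in AC and 2 in CA3, where 29.3% and 29.6% of all genes tested were. Sptbn4, at 5.42 ± 3.05 in AC and 1.94 ± 2.79 in CA3, was the one whose difference exceeded the larger SD.

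For the Kv1 channel complex, which Caspr2 holds in place, 7 of 9 genes were tested, with 1 higher in AC, 4 higher in CA3 and a median of −1.09, near that of all genes. Kcnab2, a channel beta subunit, was at 2.47 ± 4.03 in AC, with reads in 3 of 10 cells, against 6.10 ± 2.93 with reads in 12 of 13 CA3 cells, and differed by −3.62. Lgi1, a secreted partner of the complex, differed by −1.91, the channel gene Kcna6 by −1.20 and Adam22 by −1.09, and Kcnab1, the other beta subunit tested, by 1.77 towards AC. Relative to the median of all genes, 2 were higher in AC and 2 in CA3, where 29.3% and 29.6% of all genes tested were. Kcna1 and Adam23 were at 0.81 and −0.31. Summed CPM was higher in AC for Kcna6 (38 against 31.9) and Adam22 (218.8 against 201.8).

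Among ligands and receptors of contactins, 6 of 10 genes were tested, with 2 higher in AC, 2 higher in CA3 and a median of 0.03. Tnr, which encodes tenascin-R, a matrix protein that binds contactin-1, differed by −5.47. It was read in 11 of 13 CA3 cells with 2853 reads and in 1 of 10 AC cells with 1 read, with levels of 5.53 ± 3.41 and 0.06 ± 0.20. Tnr reached the filter through its CA3 cells, so nothing is read from its having passed. Ptprg, a receptor phosphatase that binds several contactins, differed by 1.01 and Aplp1, a relative of the amyloid precursor protein, by 1.17, both towards AC, and Aplp2 by −1.10 towards CA3. The difference of Aplp1 was a little above its SDs, which were 0.96 in AC and 1.04 in CA3. App and Ptpra were at 0.11 and −0.06. Ptprz1, a phosphatase that binds contactin-1, missed the filter, with reads in 5 of 10 AC cells and 1 of 13 CA3 cells. Relative to the median of all genes, 3 of the list were higher in AC and 1 in CA3, where 29.3% and 29.6% of all genes tested were.

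**Figure D5:**
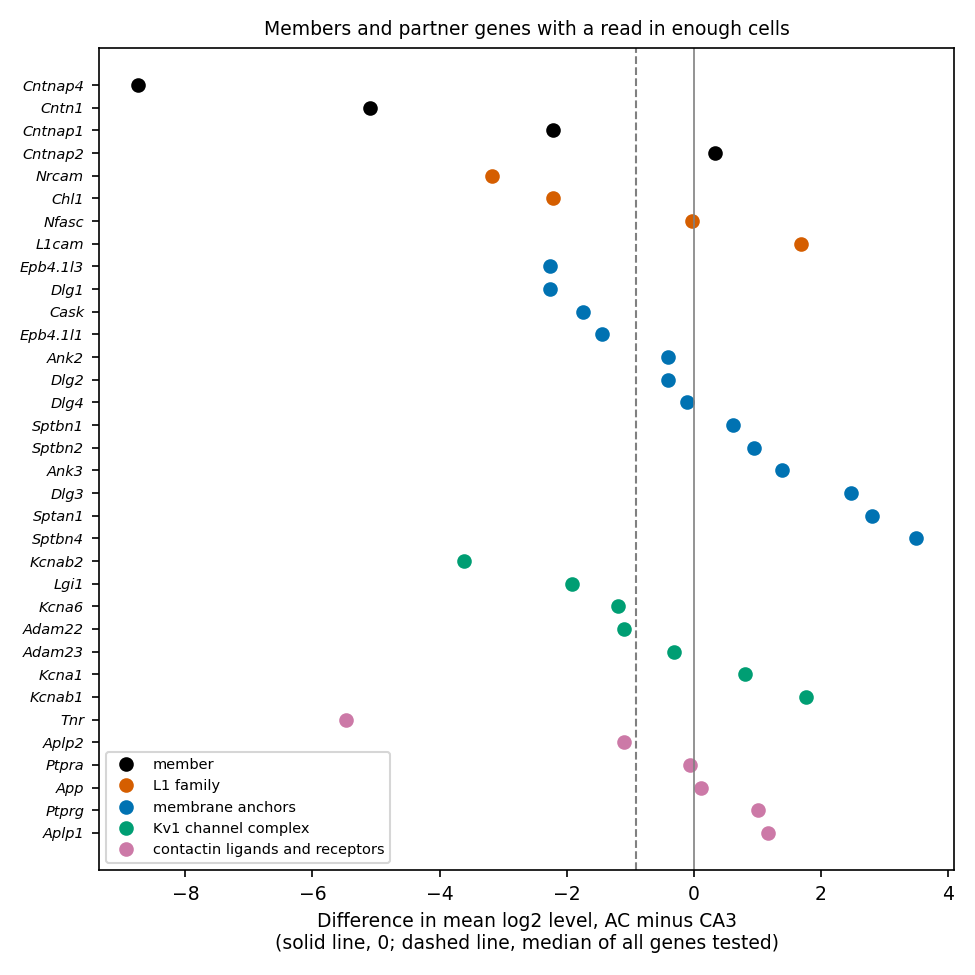
Difference in mean level, AC minus CA3 on the log2 scale, of the 4 members and 30 partner genes that had a read in at least 10 of 23 cells, coloured by list and ordered within it. The solid line is 0 and the dashed line is the median of all genes tested, −0.91. Cntnap4 at −8.75, Tnr at −5.47 and Cntn1 at −5.09 lie farthest to the left and Sptbn4 at 3.49 farthest to the right.

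Over the 26 cells, the levels of 6597 genes read in at least 10 cells were correlated with those of each member read in as many, as a description across cells that share their region and depth. The levels most like Cntnap4 were those of Clec2l (Pearson r = 0.791, Spearman rho = 0.700), Wif1 (0.781 and 0.706), which encodes a secreted inhibitor of Wnt ligands, and Ngrn (0.755 and 0.591). Clec2l was read in 12 CA3 cells, 1 AC cell and 1 CA1 cell. For Cntn1 they were Rit2 (0.776 and 0.662), a small GTPase of neurons, Rab18 (0.736 and 0.737) and Gapdh (0.734 and 0.541), a gene of glycolysis read in all 26 cells. For Cntn5 they were Sfswap (0.887 and 0.901), Fam65a (0.860 and 0.841) and Dnmt1 (0.747 and 0.660). For Cntnap2 they were Smc3 (0.711 and 0.679), Hspa13 (0.704 and 0.750) and Lpcat4 (0.694 and 0.635), and for Cntnap1 Ciao1 (0.683 and 0.657), Dnal1 (0.683 and 0.581) and Rnf123 (0.643 and 0.565).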

How the data were processed

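Single cells were sequenced, 47 columns in all. By label, those of NPY-positive cells were 20 of AC, 21 of CA3, 3 of CA1 and 2 of dentate gyrus, and a further column was an NPY-negative cell. Reads did not bear out the NPY-positive label in all of them. The CA3 columns N13, N14, N15, N17, N18, N22 and N23 had 0 reads on Npy and on Gad1. So did the AC columns N10, N49, N50 and N52 and the dentate gyrus columns N11 and N12. The AC column N9 had 0 Npy and 2 Gad1 reads. None of these columns is among the named cells. The authors deposited raw read counts per gene symbol, without normalization. Their notes name Trimmomatic, STAR, featureCounts and GRCm38, while the study names HTSeq for counting. Gene symbols replaced Ensembl identifiers (version 86), with an average where identifiers had a symbol in common. Strand use in counting is not given in the sources used here.

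The main cells are the 26 named columns. Earlier work had matched the 10 AC and 13 of them from CA3 to cells drawn in the study, a match not repeated here and one that left part of the study's CA3 cells unmatched. The 3 CA1 columns were taken by label. Members, cells and lists were chosen with earlier results of these data known. Size factors came from scran 1.30.0 (R 4.3.3) with pools of 10 and 20 cells. Levels are log2(normalised count + 1). Differences in mean level of 1 or more were counted where a gene had a read in at least 10 of 23 AC and CA3 cells. Alternatives used edgeR 4.0.16, DESeq2 1.42.0, library size, pseudocounts of 10 and 0.1, and cells thinned to 1715012 reads. Each region was 1 sample, so no test was made. On simulated data 200 of 200 changed genes among 12518 were recovered in AC minus CA3, with a median error of −0.02. The simulation set large changes in genes read in at least 20 cells, without the spread among cells seen here. It thus checks the calculation and not the calls on genes such as the members, and unchanged genes that were called are not given. Genes were named from the members, fixed partner lists and the 3 genes of highest Pearson r with each member read in 10 or more cells. Epb41l1, Epb41l2 and Epb41l3 were matched by RefSeq synonyms to Epb4.1l1, Epb4.1l2 and Epb4.1l3. Remaining steps used Python 3.11.15, pandas 2.3.3 and scipy 1.17.1.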

Additional observations from a re-analysis of the deposited data

Results flagged for a closer look

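The distance of the highest or lowest AC cell from the rest was examined for the 6 members with reads in AC, as its gap to the nearest cell over the range of the 10 cells. At the limit used, chance marks about 1 in 20 groups of independent values. Levels of cells with many at 0 are not such values, so the marks are descriptions and no test. The AC cell N46 passed it as the lowest cell for Cntnap2 (ratio 0.484, with 0 reads). The ratio was 0.298 with a pseudocount of 10, below the limit, and 0.602 with 0.1, so it is a description that depends on the scale. N46 was also the lone cell with a read of Cntnap1 (ratio 1.0, 7 reads) and of Cntn3 (ratio 1.0, 1 read). With the other 9 cells at 0 that ratio is 1.0 for any number of reads, so nothing is read from these 2 values. N46 also had 775.4 CPM of pyramidal cell and 1089 CPM of astrocyte markers, beside 11640 CPM of GABAergic markers, and their part in these values was not tested.

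Outside AC, CA3 and CA1, the dentate gyrus cell N11 had 7 Cntn1 reads, with 647 genes detected and 0 reads on the GABAergic markers. The floor used for a count of 0 is 3 reads.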

How the results depend on the processing

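The number of members at least 1 higher in AC, 0 as reported, was 1 when differences were centred on the median of all genes, 1 with all labelled cells and 1 with no filter on cells read, and 0 to 1 with each cell left out in turn, the 1 being Cntnap2 without N46. The number higher in CA3, 3 as reported, was 2 with a pseudocount of 10 and with all labelled cells, 4 with no filter, and 3 with any cell left out. In both cases of 2 the member lost was Cntnap1, at −0.93 and −0.94. The median difference was −1.06 with no filter, −2.11 and −5.38 with pseudocounts of 10 and 0.1, −2.18 with all labelled cells, and −4.08 to −3.39 with each cell left out. Cntnap4 was at −5.71 and −11.82 with pseudocounts of 10 and 0.1 and at −5.28 with all labelled cells, where it was read in 61.9% of CA3 cells. Of the 8 CA3 columns added there 1 had Gad1 reads, so the 61.9% is no share of GABAergic CA3 neurons. Leaving out each cell in turn it was −9.48 (without N27) to −8.52. Cntn1 ranged from −6.79 to −3.29 over the other settings. The direction of Cntnap4, Cntn1 and Cntnap1 was kept under every setting run, and Cntnap2 was below 0 without N8, N38 or N44. Ratios, fold bounds and values per kb with a cell left out, and summed CPM beside the partner genes, were added after seeing the data. Without N46, Cntnap1 had 0 reads in AC and no ratio. The median over all genes ran from −1.29 with a pseudocount of 0.1 to −0.35 with no filter. No paired analysis was possible because replicate numbers were given in accession order and no test was made. In CA1, 2 of the 3 cells had fewer reads than the thinning depth and were left out of it.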

Other observations

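Among labelled columns outside the 26 cells, the members were read in cells of different marker content. The AC column N45, with 6209 genes detected and 3770 CPM of GABAergic markers, had 6 members: 1609 reads of Cntnap2, 1572 of Cntn1, 823 of Cntnap4, 223 of Cntn6, 133 of Cntn4 and 14 of Cntnap1. N51 of AC had 4592 Cntnap2 and 104 Cntn5 reads beside 2030 CPM of pyramidal cell markers, and N47 of AC 1114 Cntn5 reads. In CA3, N36 had Cntnap4 as its 1 member, with 1753 genes detected and 40427 Gad1 reads. The CA3 columns N14, N15 and N18 had 271, 23 and 35 Cntn1 reads and 0 reads on the GABAergic markers. N14 had 8200 CPM of oligodendrocyte precursor markers, and N15 and N18 had 16680 and 102300 CPM of oligodendrocyte markers. The part of such markers in these reads was not tested.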
